A study of Mus musculus with 6 samples.

Results

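Glucocorticoid response genes were examined in mouse brain RNA after 4-aminopyridine. The set has 9 genes of 55604 in the count tables: the 2 corticosteroid receptor genes Nr3c1 and Nr3c2, and 7 steroid-induced targets, Fkbp5, Sgk1, Tsc22d3, Pdk4, Cdkn1a, Errfi1 and Plin4. They were chosen by name as a readout of stress hormone action, and all 9 symbols matched 1 identifier each. There were 2 groups of 3 libraries, all from brain of strain C57BL/6. The design text calls the tissue paired without saying how, and the main fit did not pair the libraries. One group had received an intraperitoneal injection of 4-aminopyridine (4-AP), a blocker of voltage-gated potassium channels given to bring on status epilepticus, in which seizures do not stop by themselves. The control group was untreated, so handling and injection differed between the groups together with the drug. Linear RNA had been digested with RNase R, an exonuclease that spares circles, and reads were counted per gene, so circular and linear RNA of a gene are combined in each value. The labels do not give the brain region, the age and sex of the animals, the time from injection to sampling or the hormone level in blood, nor whether each library came from a separate animal.

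Glucocorticoids are the hormones that the adrenal gland releases under stress, on command of the hypothalamus and pituitary. They enter cells and bind the glucocorticoid receptor (Nr3c1), found in nearly all brain cells, and the mineralocorticoid receptor (Nr3c2), which binds the same hormone with higher affinity and is most abundant in hippocampal neurons. The loaded receptor leaves its chaperones, moves to the nucleus and switches on genes through a palindromic DNA element; Fkbp5, Sgk1 and Tsc22d3 are widely used as markers of this action in brain.

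The element is shown for Sgk1 because 1 of its start sites carries the full palindrome close by. Promoter windows of 300 bases (250 before to 50 after each RefSeq start, GRCm38.p6) were held for 8 of the 9 genes, all but Nr3c1, and came to 17 windows. They were searched on both strands for the full element (AGAACA, 3 bases of any kind, then TGTTCT), for a looser core (GNACA, 3 bases of any kind, then TGTNC) and for the single arm AGAACA; the full element contains both of the others. The full element lay in 3 of 32851 windows of all genes (0.00913%) and in 1 of the 17, a start site of Sgk1. The core lay in 0.475% of all windows and, among the 17, in that same window only. The arm lay in 19% of all windows and in 4 of the 17, 3 of the 6 Sgk1 windows and 1 of the 3 Tsc22d3 windows. The bases before the Sgk1 start are printed 5′ to 3′ on the plus strand (GRCm38, chr10:21993640-21993889), with the element and a lone arm in capitals.
Sgk1, 250 bases before the start at 21993890: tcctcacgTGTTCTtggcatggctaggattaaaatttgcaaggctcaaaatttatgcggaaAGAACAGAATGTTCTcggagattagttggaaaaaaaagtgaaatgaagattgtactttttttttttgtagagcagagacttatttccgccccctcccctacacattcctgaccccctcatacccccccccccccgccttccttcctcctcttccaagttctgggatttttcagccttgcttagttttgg
The element, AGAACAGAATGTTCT, occupies bases 189 to 175 before the start, and the lone arm bases 242 to 237. No annotated exon overlaps the stretch, and 5 longer Sgk1 transcripts carry it within an intron. A match is a run of letters and not a measured binding site, and the counts do not say which start site was used.

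None of the 9 genes passed the test. The test was the quasi-likelihood test of edgeR, with p-values adjusted by Benjamini and Hochberg's method over 11388 genes. It called 0 of 9 members at an adjusted p under 0.05 and 0.843% of all genes tested. DESeq2 called 0 of the 5 members to which it gave an adjusted p, against 4.52% of all genes with one. At an unadjusted edgeR p under 0.05 there were 2 of 9, Pdk4 and Cdkn1a, against 13.9% of all tested genes. For both, the group with the lower values did not by itself meet the filter on low counts. These 2 were also the only members whose groups did not overlap, 1 with the 4-AP libraries above the controls and 1 below, against 8.36% and 10.4% of all tested genes. The plot of each gene by library shows the 6 values behind each of these statements. Values below are CPM, the read count scaled to counts per 1e6 of the normalized library size; log2 fold changes compare 4-AP with control.

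**Figure D1:**
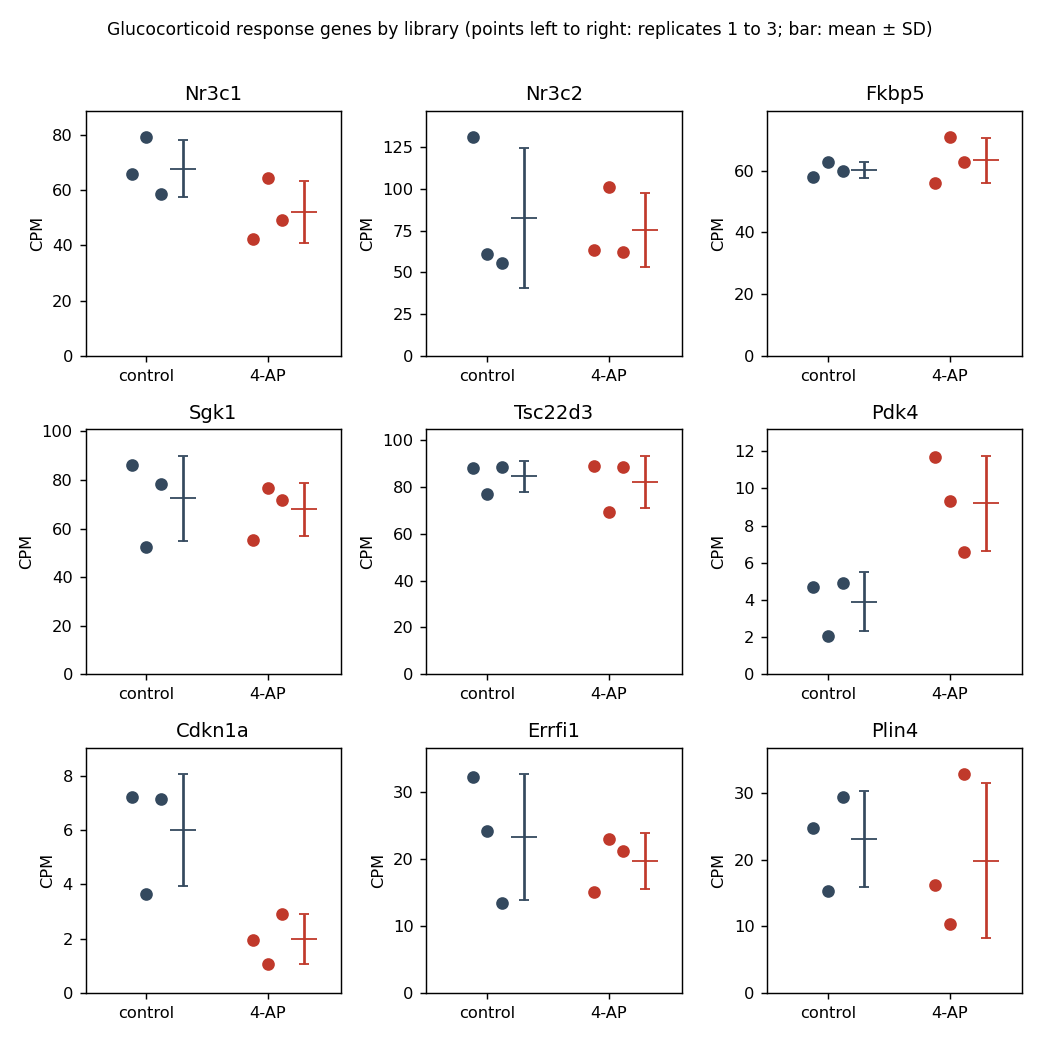
CPM of the 9 genes (y axes, starting at 0) in the 3 control and 3 4-AP libraries; points are libraries and bars the mean ± SD. The groups overlap in 7 panels, whereas all 3 4-AP libraries lie above the controls for Pdk4 (6.58 to 11.7 against 2.07 to 4.91 CPM) and below them for Cdkn1a (1.07 to 2.92 against 3.63 to 7.23 CPM).

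Nr3c1, the glucocorticoid receptor gene on chromosome 18, had 42.4, 64.3 and 49.0 CPM after 4-AP and 65.7, 79.1 and 58.5 CPM in controls. The highest 4-AP library lay above the lowest control, so the groups overlapped. The means were 51.9 ± 11.3 and 67.8 ± 10.5 CPM (SD, n = 3 each); the log2 fold change was -0.37 (SE 0.20; 95% interval -0.78 to 0.04; edgeR adjusted p = 0.436). It was negative in all 6 fits that left out 1 library, from -0.55 to -0.23.

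Nr3c2, the mineralocorticoid receptor gene on chromosome 8 (76899442 to 77245012, mm10), had 63.2, 101 and 62.1 CPM after 4-AP and 131, 60.9 and 55.8 CPM in controls. A single control and a single 4-AP library stood well above the other 4, which lay within 55.8 to 63.2 CPM. The log2 fold change was -0.11 (SE 0.36; 95% interval -0.96 to 0.73; edgeR adjusted p = 0.942), and without control replicate 1 it was 0.40 (edgeR adjusted p = 0.478). Prox1, a marker of dentate granule cells of the hippocampus, was also highest in control replicate 1, with 50.9 CPM there, 9.34 and 15.2 CPM in control replicates 2 and 3, and 15, 25.0 and 32.2 CPM after 4-AP; the part of tissue make-up in the Nr3c2 values was not tested. In such bulk samples fewer cells of a type and less RNA per cell cannot be told apart. On the opposite strand Gm10649 shares 3.82% of the exonic bases of Nr3c2.

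Per kilobase of exon, Nr3c2 had the higher count in 5 of the 6 libraries. These counts were made after RNase R and divided by the full exonic length, so the order may differ from that before digestion. In control brain Nr3c1 was at 8.82 ± 1.36 and Nr3c2 at 12.7 ± 6.47 CPM per kilobase, and in 4-AP brain at 6.75 ± 1.47 and 11.6 ± 3.4 (SD, n = 3 each). The log2 ratio of Nr3c1 to Nr3c2 was -0.82, -0.89 and -0.59 after 4-AP, against -1.24, 0.13 and -0.18 in controls. The 4-AP values were close together and lay within the range of the controls. The difference of the group means, -0.34, was smaller than the SD of the controls, 0.72, and moved to -0.74 without control replicate 1.

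**Figure D2:**
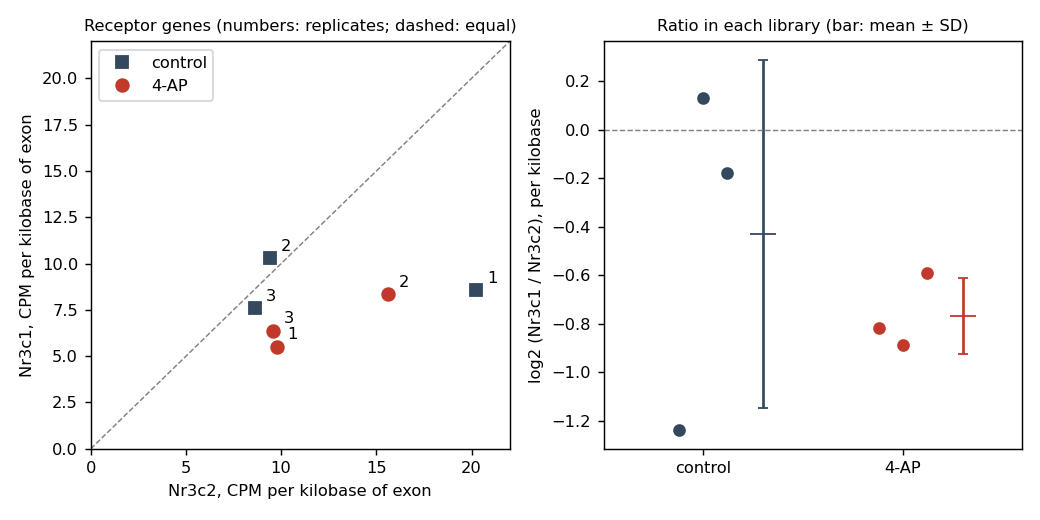
Left, Nr3c1 against Nr3c2 in CPM per kilobase of exon, 1 point per library with its replicate number and a dashed line of equal levels; right, the log2 ratio per library with mean ± SD by group. Control replicate 2 is the 1 library above the line (ratio 0.13), and the 3 4-AP ratios (-0.89 to -0.59) lie between those of control replicates 1 (-1.24) and 3 (-0.18).

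For the 3 standard markers of glucocorticoid action the difference between groups was smaller than the spread among the 4-AP libraries. Their counts are of RNA left after RNase R, circular and linear together, so the intervals below do not bound a change in linear RNA alone. Fkbp5, on chromosome 17 (28399094 to 28517527), encodes an Hsp90 co-chaperone that lowers the hormone affinity of the receptor and is itself induced by it, a short feedback loop. It had 56.1, 70.8 and 62.9 CPM after 4-AP and 57.8, 62.8 and 59.8 CPM in controls. The controls fell inside the range of the 4-AP libraries, and the log2 fold change was 0.08 (SE 0.18; edgeR adjusted p = 0.906). On a linear scale the 95% interval ran from 0.816 to 1.37 times the control level. The sign turned with scaling by total counts only (-0.12), a scaling under which the median log2 fold change over all genes was -0.22.

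Sgk1, the serum- and glucocorticoid-induced kinase that regulates ion channels and transporters and whose promoter is printed above (gene on chromosome 10, 21882184 to 21999903), had 55.4, 76.5 and 71.6 CPM after 4-AP and 86.1, 52.6 and 78.5 CPM in controls. The lowest and the highest value were both controls. The log2 fold change was -0.08 (SE 0.20; edgeR adjusted p = 0.916), with a 95% interval of 0.705 to 1.27 times the control level. It was 0.04 without 4-AP replicate 1 and 0.08 without control replicate 1.

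Tsc22d3, on the X chromosome (140539528 to 140600659), encodes GILZ, a leucine zipper protein that carries part of the anti-inflammatory action of the hormone. It had 88.7, 69.3 and 88.4 CPM after 4-AP and 88.0, 76.8 and 88.4 CPM in controls. In each group 2 libraries stood near 88 CPM and replicate 2 was lower. The log2 fold change was -0.05 (SE 0.17; edgeR adjusted p = 0.949), with a 95% interval of 0.755 to 1.24 times the control level. In simulated counts of the same 11388 genes and depths, the test found 9.85% of the genes given a 1.5-fold change; at 2-fold it found 52.5%, and at 4-fold 94.8%. The changed genes were drawn from all tested genes, whatever their counts, so these shares are not those of Fkbp5, Sgk1 or Tsc22d3.

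Pdk4 and Cdkn1a had the largest differences among the members, in opposite directions and on few reads. Pdk4, on chromosome 6 (5483351 to 5496309), encodes a mitochondrial kinase that shuts down pyruvate dehydrogenase and so spares glucose; fasting and glucocorticoids induce it. Its reads numbered 18, 26 and 9 after 4-AP against 15, 8 and 11 in controls, which corresponded to 11.7, 9.29 and 6.58 against 4.71, 2.07 and 4.91 CPM. Every 4-AP library lay above every control. The means were 9.2 ± 2.58 and 3.9 ± 1.58 CPM (SD, n = 3 each), 2.43 times the control level in the fit (95% interval 1.25 to 4.73), with a log2 fold change of 1.28 (SE 0.46) that did not pass (edgeR adjusted p = 0.187). The change was between 0.96 and 1.49 in the 6 fits that left out 1 library, and none of them passed (edgeR adjusted p from 0.222 to 0.461). Pdk4 met the filter on low counts in 3 4-AP libraries and 2 controls, where 3 libraries were needed. The controls alone would therefore not have brought it into the test.

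Cdkn1a, on chromosome 17 (29090976 to 29100727), encodes the cell cycle inhibitor p21, a target of p53 as well as of the glucocorticoid receptor. Its reads numbered 3, 3 and 4 after 4-AP against 23, 14 and 16 in controls, which corresponded to 1.96, 1.07 and 2.92 against 7.23, 3.63 and 7.14 CPM. All 3 4-AP libraries lay below the controls. The log2 fold change was -1.67 (SE 0.60; 95% interval -2.93 to -0.42) and did not pass (edgeR adjusted p = 0.188, and 0.0935 with scaling by total counts only). The filter on low counts asked for 3 libraries at 3.94 CPM or more of total counts, which 3 controls and 0 4-AP libraries of Cdkn1a met, so the gene entered the test only through the group in which it was higher; without control replicate 1 it was not tested. Without a stated strand setting, reads of AC167363.2, which shares 7.68% of the exonic bases on the opposite strand, could have been counted with it. The other 8 members met the filter in the 4-AP libraries alone, and all but Pdk4 also in the controls alone.

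Errfi1, on chromosome 4 (150853919 to 150868892), encodes an inhibitor of the EGF receptor that glucocorticoids and growth factors induce. It had 15, 22.9 and 21.2 CPM after 4-AP and 32.1, 24.1 and 13.4 CPM in controls. The controls spread more widely than the 4-AP libraries and enclosed them; the log2 fold change was -0.24 (SE 0.29; edgeR adjusted p = 0.794), and 0.06 without control replicate 1. Plin4, on chromosome 17 (56100591 to 56109803), encodes a lipid droplet coat protein. It had 16.3, 10.4 and 32.9 CPM after 4-AP and 24.8, 15.3 and 29.5 CPM in controls. Here the 4-AP libraries held both the lowest and the highest value; the log2 fold change was -0.28 (SE 0.37; edgeR adjusted p = 0.814), and 0.12 without 4-AP replicate 2.

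The members were also ranked by level per kilobase. In control brain Tsc22d3 was highest, at 19.4 ± 1.52 CPM per kilobase, followed by Sgk1 at 14.8 ± 3.58, Nr3c2, Nr3c1, Errfi1 at 6.47 ± 2.62 and Fkbp5 at 6.35 ± 0.262 (SD, n = 3). From Tsc22d3 to Fkbp5 each gene lay within the summed SDs of its neighbour. Plin4 at 4.02 ± 1.25 stood below Fkbp5, and Cdkn1a at 1.69 ± 0.578 and Pdk4 at 1.11 ± 0.451 stood below Plin4, each by more than the summed SDs. In 4-AP brain Fkbp5 (6.68 ± 0.776) came before Errfi1 (5.5 ± 1.16), and the last places were exchanged, with Pdk4 at 2.62 ± 0.735 and Cdkn1a at 0.558 ± 0.261 CPM per kilobase. Averaged over both groups, Tsc22d3 had a higher level per kilobase than 85.5% of the tested genes, Sgk1 than 79.5%, Fkbp5 than 57.6% and Cdkn1a than 7.06%. The levels are those of RNA left after RNase R, circular and linear together, over the full exonic length. They may rank the genes otherwise than RNA before digestion would.

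Correlations among the members ran in both directions. Within a library all genes share its depth and scaling. Over the 6 libraries the 36 pairs of members had Pearson correlations of log2 CPM from -0.863 (Fkbp5 with Tsc22d3) to 0.836 (Tsc22d3 with Plin4). The median was 0.0955, and 23 pairs were above 0. Fkbp5 was highest and Tsc22d3 lowest in 4-AP replicate 2. Among 7306 other genes whose log2 CPM averaged 4 or more, those most like Nr3c1 over the 6 libraries were Rictor (r = 0.997), Eif1ax (0.993) and Exoc8 (0.989). Those most like Nr3c2 were Ubap2 (0.985), Usp20 (0.982) and Carm1 (0.981), and those most like Fkbp5 were Zdhhc17 (0.987), Reep1 (0.979) and Wbp4 (0.978). With 6 points and so many genes searched, these values describe the libraries only.

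**Figure D3:**
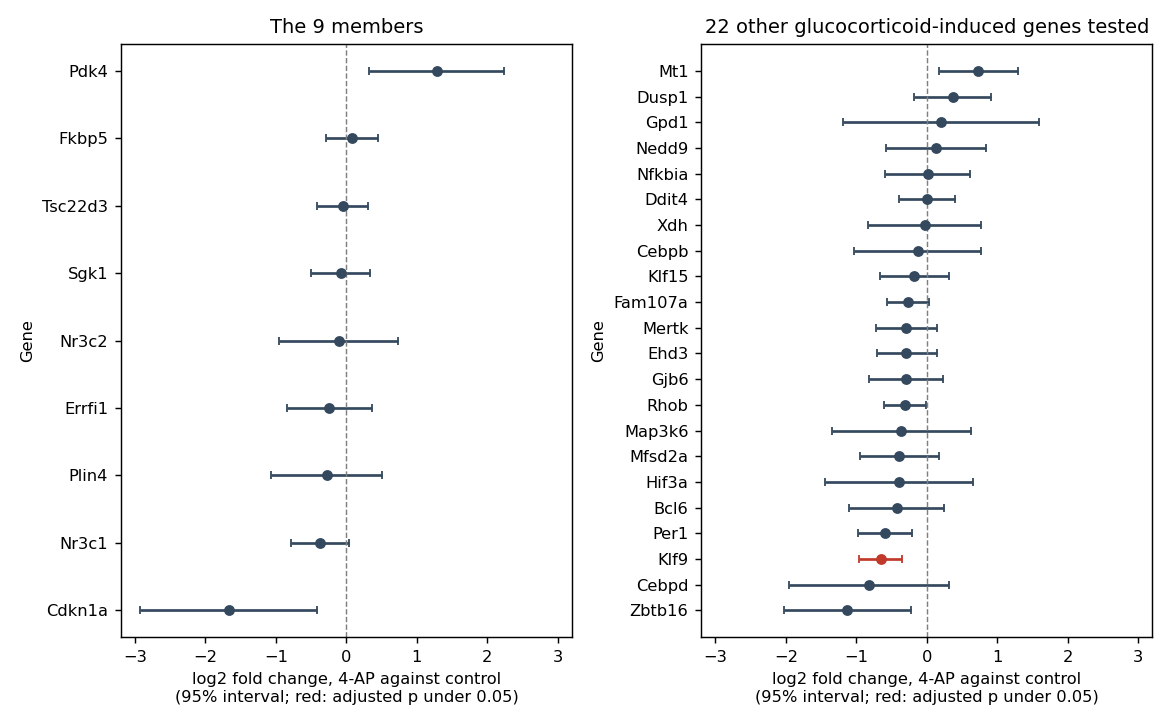
Log2 fold change of 4-AP against control (x axis) with its 95% interval for the 9 members (left) and the 22 tested genes of a wider list of glucocorticoid-induced genes (right); red marks an adjusted p under 0.05. Among the members the intervals of Pdk4 and Cdkn1a alone lie to 1 side of 0, and neither passes after adjustment; on the right Klf9 (-0.65) is the 1 gene that passes.

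A wider list of 29 other glucocorticoid-induced genes had 22 tested members, of which 0 rose and 1 fell, against 0.334% and 0.509% of all tested genes. At an unadjusted edgeR p under 0.05 there were 5 (22.7%, beside 13.9% of all tested genes). The median log2 fold change was -0.29, beside -0.008 for all tested genes, and 16 of the 22 (72.7%) were negative, beside 51% of all genes. In 6 of the 22 the 4-AP libraries lay below the controls (27.3%, beside 10.4% of all tested genes) and in 2 above (9.09%, beside 8.36%). The median was -0.11 without 4-AP replicate 2.

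Klf9, a Krüppel-like transcription factor of neurons that both glucocorticoid and thyroid hormone induce, was the gene that fell. It had 135, 152 and 135 CPM after 4-AP and 193, 239 and 235 CPM in controls, with no overlap. The log2 fold change was -0.65 (SE 0.15; edgeR adjusted p = 0.0362), with means of 141 ± 9.69 and 222 ± 25.6 CPM (SD, n = 3 each). With 1 library left out it passed in 2 fits of 6 and lost its call without 4-AP replicate 1 (edgeR adjusted p = 0.13), 4-AP replicate 3 (0.197), control replicate 2 (0.136) or control replicate 3 (0.161), with values of -0.63, -0.63, -0.58 and -0.62.

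Per1, a clock gene with a glucocorticoid-responsive promoter, had 110, 76.1 and 91.4 CPM after 4-AP and 176, 120 and 121 CPM in controls. The groups did not overlap, and the log2 fold change of -0.60 (SE 0.19) did not pass (edgeR adjusted p = 0.123); it passed with scaling by total counts only (0.0255) and with no filter (0.0361). Zbtb16, a zinc finger repressor named here after its values were seen, had 84.1, 45.0 and 45.3 CPM against 192, 94.4 and 91.5. Replicate 1 was the highest of each group. Its log2 fold change was -1.13 (SE 0.38, edgeR adjusted p = 0.246). It passed with DESeq2 (adjusted p = 0.00959), and in edgeR with total counts only (0.0287) and with no filter (1.81e-06). With the replicate number as a block both genes passed (edgeR adjusted p = 0.0426 for Per1 and 0.000743 for Zbtb16).

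Markers of excitatory neurons of cortex and hippocampus were lower in the same libraries. Their summed level was 1288 to 1863 CPM after 4-AP and 2354 to 2439 in the controls. Of the 8, 3 fell, beside 0.509% of all tested genes. The summed pan-neuronal markers were at 2430 to 2839 against 2892 to 3272 CPM, with 0 of 8 called, beside 0.843% of all tested genes. None of these 16 markers was at 0 in all libraries. Their part in the values of Klf9, Per1 and Zbtb16 was not tested. Of the positive members of the list, the metallothionein gene Mt1 had 24.8, 22.9 and 20.5 CPM after 4-AP against 16.0, 10.4 and 15.2 CPM in controls (log2 fold change 0.73, SE 0.27; edgeR adjusted p = 0.199), and the MAP kinase phosphatase gene Dusp1 was at 0.37 (SE 0.26). Both were above the controls in all 3 4-AP libraries. Arrdc2 and Tat had 0 reads in every library, which is not read as absence of their RNA, and Mt2 (1 read in all), Angptl4, Lcn2, Sult1a1 and Cdkn1c had too few reads to be tested.

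**Figure D4:**
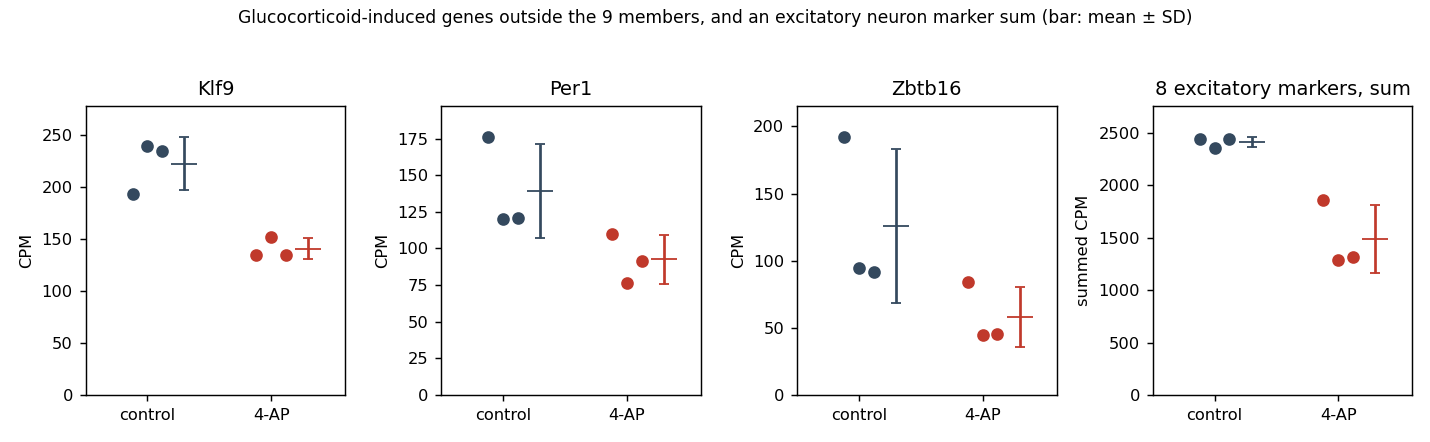
CPM of Klf9, Per1 and Zbtb16 and the summed CPM of 8 markers of excitatory neurons (y axes, starting at 0) in the 3 control and 3 4-AP libraries, with mean ± SD. In each panel all 3 4-AP libraries lie below the controls; Klf9 spans 135 to 152 CPM against 193 to 239.

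None of the receptor partners passed the test. Of 12 chaperone and co-chaperone genes, which keep the empty receptor ready for hormone, 12 were tested and 0 called. Over all tested genes 0.843% were called, so 0 of 12 does not set the list apart. The median log2 fold change of the list was -0.06. At an unadjusted edgeR p under 0.05 there was 1, beside 13.9% of all tested genes. Hsp90ab1, a constitutive Hsp90 gene, had 319 ± 21.9 CPM in 4-AP and 406 ± 17.7 CPM in control libraries (SD, n = 3 each), without overlap (log2 fold change -0.35, SE 0.13; edgeR adjusted p = 0.226), and the p23 gene Ptges3 was at -0.50 (SE 0.25). The co-chaperone genes Stip1, at 0.34 (SE 0.17), and Ppid, at 0.32 (SE 0.27), had the lowest p among the 4 positive ones. Of 12 coregulator genes, which carry the signal of the bound receptor to chromatin, 12 were tested and 0 called, with a median of -0.09. Again 1 was at an unadjusted edgeR p under 0.05, beside the same shares of all tested genes. The corepressor gene Nrip1 was at -0.59 (SE 0.24; edgeR adjusted p = 0.251) and the chromatin remodeller Smarca4 at -0.24 (SE 0.15). The coactivator Ncoa2 was at 0.21 (SE 0.15) and the arginine methyltransferase Carm1 at 0.03 (SE 0.21); with total counts only these turned to -0.02 and -0.18.

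Of 17 genes of hormone supply and of the hypothalamus, pituitary and adrenal axis, 7 could be tested. Of these 1 rose and 0 fell, beside 0.334% and 0.509% of all tested genes, and the median log2 fold change was -0.26. The one that rose was Avp, encoding vasopressin, which acts with corticotropin-releasing hormone on the pituitary: its reads numbered 22, 29 and 26 after 4-AP against 0, 3 and 0 without it, a ratio of 41.8 (95% counting interval 13.8 to 207; edgeR adjusted p = 0.000237). All 3 control reads were in control replicate 2. The brain region is not given and no marker list of the hypothalamus was used, so the part of sampled tissue in the Avp values was not tested. The filter on low counts was met by 3 4-AP libraries and 0 controls, so Avp, like Cdkn1a, entered the test only through the group in which it was higher. Crh, the gene of corticotropin-releasing hormone itself, had 1, 11 and 3 reads after 4-AP against 4, 12 and 7 without it, too few to be tested, so a change in it was not detectable at this depth. H6pd, which supplies the cofactor for local reactivation of the hormone, was at 0.47 (SE 0.22; edgeR adjusted p = 0.34). The receptor gene Crhr1 was at -0.35 (SE 0.29) and the binding protein gene Crhbp at -0.26 (SE 0.47). Hsd11b1, the reactivating enzyme, had between 3 and 24 reads per library, and Hsd11b2, the inactivating one, between 0 and 5.

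Total counts were 1507882 to 2721287 in the 4-AP libraries and 2355610 to 3409055 in the controls, so the 4-AP libraries tended to be shallower. A two-sided exact permutation test of depth between the groups gave p = 0.2; 3 against 3 libraries allow no p under 0.1. Over all genes 38 were higher and 58 lower, and with total counts only 26 and 293. Of the 8 lists of cell type markers, the summed level of the microglia list was also apart, at 455 to 561 CPM after 4-AP and 375 to 441 in the controls, with 0 of 7 tested members called; without Cx3cr1, its most abundant gene, the sums overlapped (128 to 170 against 129 to 162 CPM). The choroid plexus sums overlapped, at 89.3 to 238 against 86.1 to 112 CPM, but without Enpp2, the most abundant gene of that list, the 4-AP libraries lay above the controls (15.6 to 80.8 against 3.89 to 13.4 CPM). All 3 tested choroid plexus genes were positive and 0 were called. Ttr and Clic6 were higher in every 4-AP library than in any control, as were 8.36% of all tested genes. Ttr had 8, 154 and 10 reads after 4-AP against 4, 0 and 7 in controls (edgeR adjusted p = 0.334). Of the untested genes of the list, Folr1, Kl and Aqp1 had higher mean CPM after 4-AP, and Otx2 and Kcnj13 lower. The part of these markers in the values of the members and of Avp was not tested. The other 4 lists, of oligodendrocytes, astrocytes, vessels and blood, overlapped between the groups with and without their most abundant gene, and none of their tested members was called. No marker in any of the 8 lists was at 0 in all libraries, the neuronal and glial ones of brain included. No label says that libraries are separate animals, so the p-values measure the spread between these 3 and 3 samples.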

How the data were processed

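The authors deposited 1 table of raw read counts per gene for each of the 6 libraries. The submitters' processing notes name STAR 2.5.3a, featureCounts and the build mm10. Not given in the sources used here are the release of the annotation, whether strand was used and how reads with several matches were counted. Of 55604 Ensembl identifiers, 54809 matched GENCODE M21 without their version, which gave symbols, coordinates and exonic lengths.

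Genes were filtered with filterByExpr (minimum count 10, minimum total 15), scaled with TMM factors and passed to edgeR 4.0.16 in R 4.3.3 (quasi-likelihood test, robust, group as the only term), with Benjamini-Hochberg adjustment over 11388 genes and a threshold of 0.05. Standard errors come from the fold change and the F statistic. The fit was tested on simulated data (5 draws, each with 200 changed genes); 6.28% of its calls were unchanged genes. Between libraries of all pairs, chi-square per degree of freedom was at least 7.79, so none looked like a repeat of another. Counting intervals cover counting error only.

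The members, lists and tests were chosen with earlier results of these data known. Named besides the members are for each list, up to 2 tested genes of lowest p on either side of 0, every called gene, and the 3 genes most like each receptor gene and Fkbp5. Named outside this rule are Zbtb16, Crh, Hsd11b1, Hsd11b2, the untested genes of the wider list, genes that overlap members and individual cell type markers. Alternatives were other scalings, DESeq2 1.42.0, other filters, mitochondrial and structured RNA genes left out (9.53% of counts), the replicate number as a block and each library left out. Promoter sequences are from RefSeq.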

Additional observations from a re-analysis of the deposited data

How the results depend on the processing

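None of the 9 members passed in any of the 13 alternatives that tested them; of 112 recomputed member values 8 changed sign and 0 became called. Fkbp5 was at -0.12 with total counts only, where Carm1 was at -0.18 and Ncoa2 at -0.02. Leaving out 1 library gave -0.37 to 0.40 for Nr3c2 (0.003 without 4-AP replicate 3), -0.26 to 0.08 for Sgk1 (0.04 without 4-AP replicate 1), -0.11 to 0.10 for Tsc22d3, -0.49 to 0.06 for Errfi1, -0.83 to 0.12 for Plin4, -0.08 to 0.25 for Carm1 (-0.06 when 4-AP replicate 2 and -0.02 when control replicate 2 was left out) and -0.59 to 0.11 for Crhbp; the cause was not tested. The Nr3c1 to Nr3c2 difference ran from -0.74 to -0.06.

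Over all genes there were 83 higher and 133 lower with DESeq2, 131 and 197 with no filter, 26 and 293 with total counts only, and 16 to 105 higher and 10 to 54 lower without 1 library. Of the wider list of glucocorticoid-induced genes, 3 were lower with total counts only or with no filter (Klf9, Per1 and Zbtb16), 2 with DESeq2 (Klf9 and Zbtb16) and 0 to 1 without 1 library. In the hormone list 0 were higher with DESeq2, which gave Avp no adjusted p.

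The design text calls the tissue paired without saying how. The deviations of same-numbered libraries from their group means correlated at -0.00189, 0.113 and 0.0245. With 3 libraries per group these correlations can neither show nor exclude pairing. The main fit left the libraries unpaired, and the replicate number entered as a block in an alternative. With the replicate number as a block there were 112 higher and 153 lower genes, 3 lower in the wider list (Klf9, Per1 at an edgeR adjusted p of 0.0426, and Zbtb16 at 0.000743) and 0 members called. Not every library correlated best with its own number.

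A single read was worth 0.259 to 0.731 CPM, which limits what can be said of Cdkn1a, Pdk4 and Crh.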
